A study of Sus scrofa with 36 samples.

Results

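The RNA levels of 10 genes that mark the inhibitory interneurons and the unipolar brush cells of the cerebellum were followed in young piglets. The genes were GAD1, GAD2, SLC32A1, SLC6A5, PVALB, PAX2, KIT, EOMES, GRM2 and SORCS3. They were listed by name from what is known of these cells, with no threshold on their values but with earlier results of these data known. Each matched 1 of the 31907 Ensembl pig genes in the count tables. All 10 passed the filter on low counts that left 15356 genes for testing. The piglets were pigs of both sexes, of normal birth weight (NBW, NORM in the sample labels) or intrauterine growth restricted (IUGR), and all were fed a formula from 3 days of age for 3 weeks. The formula took its fat from vegetable oil, in the groups VEG-NBW and VEG-IUGR, or from bovine milk, in the groups MILK-NBW and MILK-IUGR, with 9 piglets in each group. Values of the groups are given in this order. Each piglet gave 1 cerebellum library, and litter was not in the labels. The piglets came from fewer litters than a group has piglets, so that littermates shared groups.

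The cerebellar cortex holds several kinds of inhibitory interneuron. Basket and stellate cells of the molecular layer release GABA onto Purkinje cells, and Golgi cells of the granular layer release GABA and glycine onto granule cells. Purkinje cells are themselves GABAergic, so that the enzymes and transporters of GABA are shared by interneurons and Purkinje cells. Unipolar brush cells are the exception among these types, since they are excitatory, use glutamate and arise from the rhombic lip.

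Libraries were compared by CPM, the count of a gene relative to the total of its library, scaled by the TMM method. In 3 libraries the share of read pairs without a gene stood apart from the rest of the group (piglet 202 of VEG-NBW at 43.6%, piglet 210 of VEG-IUGR at 64.3% and piglet 213 of MILK-NBW at 31.5%). These were left out of the main comparisons, which leaves 8 piglets each in VEG-NBW, VEG-IUGR and MILK-NBW and 9 in MILK-IUGR. In the 33 libraries kept the share was 26.7 to 30.5%, the total count on genes was 15516541 to 23027502 (median 18025540), and 16 piglets were female and 17 male. The labelled tissue was checked with its markers. All 8 Purkinje markers and all 8 granule cell markers were measured with a median above 0, whereas 4 of 9 brainstem markers had a median of 0 and the 9 summed to 0.257 to 3.34 CPM. In bulk tissue, fewer cells of a type and less RNA per cell cannot be told apart.

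The genes of GABA synthesis and loading differed little between groups. GAD1 (chromosome 15, 76991863 to 77034819 in Sscrofa11.1), the glutamate decarboxylase that makes most of the GABA of the cell body, had 327 ± 60.3 CPM in VEG-NBW, 337 ± 34.8 in VEG-IUGR, 359 ± 30.8 in MILK-NBW and 325 ± 40.7 in MILK-IUGR (mean ± SD, n = 8, 8, 8 and 9, as for all means of groups given here). GAD2 (chromosome 10, 49316682 to 49391013), the decarboxylase of nerve terminals, had 155 ± 14.6, 163 ± 11.4, 161 ± 13.0 and 166 ± 10.9 CPM in the same order. SLC32A1 (chromosome 17, 41689479 to 41694560), which loads GABA and glycine into synaptic vesicles, had 141 ± 27.9, 139 ± 25.0, 144 ± 23.2 and 135 ± 18.2 CPM. The ranges of the 4 groups overlapped in each of these 3 genes. MILK-NBW had the highest mean of GAD1 and SLC32A1, and MILK-IUGR had that of GAD2.

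Of the genes of the molecular layer, KIT varied most on the log2 scale. PVALB (chromosome 5, 10953559 to 10973300) encodes parvalbumin, a calcium buffer of basket, stellate and Purkinje cells, and had 334 ± 76.7, 333 ± 66, 341 ± 84 and 330 ± 48.2 CPM in the 4 groups. KIT (chromosome 8, 41402334 to 41492306), a receptor tyrosine kinase on basket and stellate cells, had 271 ± 77.7, 272 ± 69.7, 315 ± 70.2 and 293 ± 67.7 CPM. SORCS3 (chromosome 14, 115587176 to 116202433), a sorting receptor found in molecular layer interneurons, had 19.0 ± 3.89, 19.2 ± 3.53, 21.1 ± 2.84 and 18.9 ± 2.16 CPM. The means of PVALB were nearly level over the groups, and MILK-NBW had the highest mean in all 3 genes. Piglets within a group differed by more than the groups did: KIT in VEG-NBW went from 182 CPM in piglet 222 to 421 CPM in piglet 229. In the RefSeq annotation the span of PVALB overlaps NCF4 and that of SORCS3 overlaps a long non-coding RNA. The strand setting of the counting was not given in the sources used here, so reads of these pairs may not be told apart.

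SLC6A5 and PAX2 are known from glycinergic Golgi cells and from young interneurons. SLC6A5 (chromosome 2, 38767447 to 38826891), the neuronal glycine transporter of Golgi cells, was counted by only 56 to 150 read pairs per library. Its lowest, median and highest values were 4.88, 5.30 and 6.13 CPM in VEG-NBW, 4.01, 5.55 and 8.03 in VEG-IUGR, 3.43, 5.05 and 6.59 in MILK-NBW, and 3.66, 6.04 and 7.72 in MILK-IUGR. Both IUGR groups had a higher median than the NBW group on the same diet, with ranges that overlapped. PAX2 (chromosome 14, 111822334 to 111914950), a transcription factor of young inhibitory interneurons, had a lowest, median and highest value of 9.52, 11 and 12.2 CPM in VEG-NBW and of 8.24, 11.5 and 14 in VEG-IUGR. In MILK-NBW these were 11, 12.4 and 16.7 CPM, and in MILK-IUGR 3.84, 12.7 and 14.1. The low value was that of piglet 207, a female of MILK-IUGR with 63 read pairs on PAX2, and no other library kept was below 8.24 CPM. The same piglet had the lowest SLC6A5 of its group.

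EOMES and GRM2 mark unipolar brush cells. EOMES (chromosome 13, 14209590 to 14216184), the T-box factor that defines them, had a lowest, median and highest value of 43.4, 78.2 and 103 CPM in VEG-NBW, 47.8, 72.3 and 99.5 in VEG-IUGR, 51.5, 66.3 and 85.0 in MILK-NBW, and 61.7, 79.7 and 106 in MILK-IUGR. MILK-NBW was the lowest of the 4 groups by its median and MILK-IUGR the highest. GRM2 (chromosome 13, 33924303 to 33938279), a glutamate receptor of unipolar brush and Golgi cells, had 17.3 ± 3.01, 16 ± 2.91, 16 ± 2.05 and 17.0 ± 1.88 CPM in the 4 groups. Its 4 groups overlapped over most of their ranges.

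**Figure D1:**
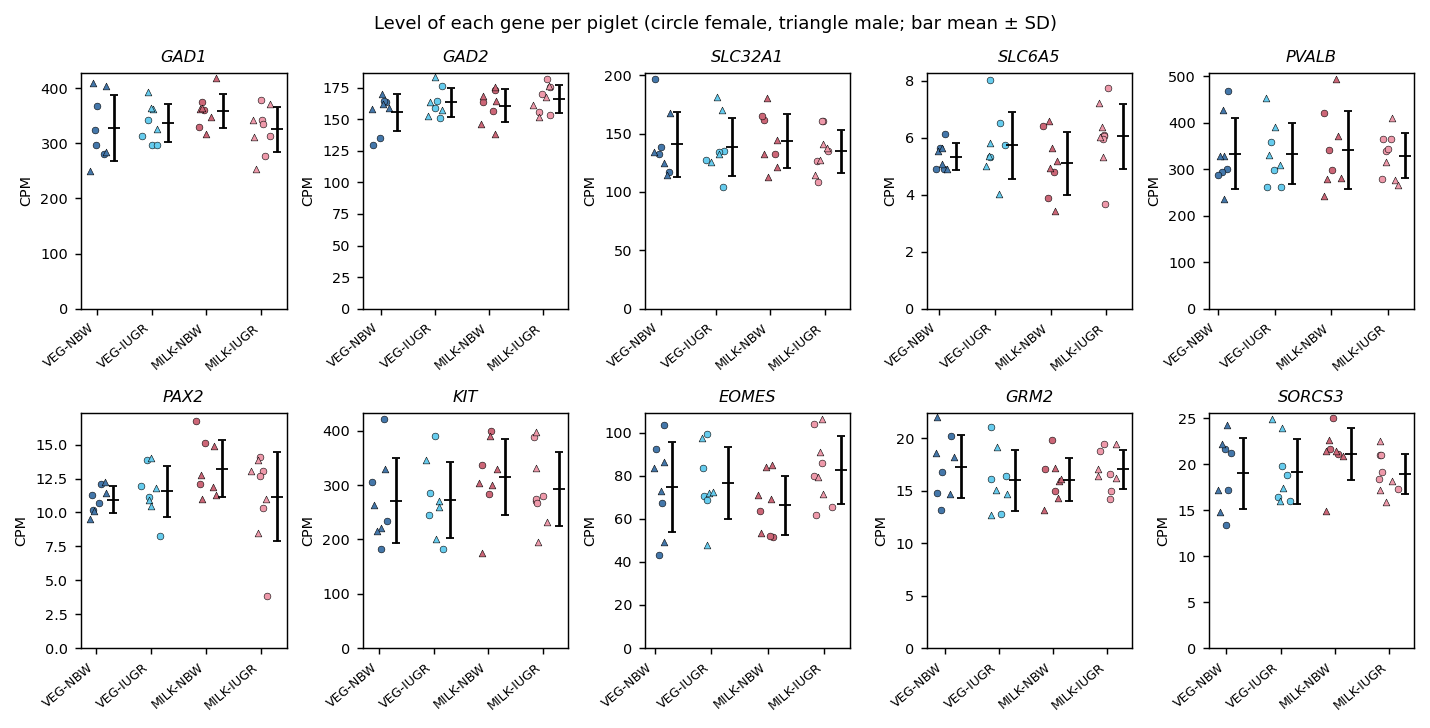
CPM (vertical axis, from 0) of each of the 10 genes in the 33 libraries kept, by diet and birth weight group (horizontal axis). Circles are females, triangles males, and the bars are mean ± SD. The groups overlap in every panel, and piglet 207 is the low point of PAX2 in MILK-IUGR at 3.84 CPM.

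The genes differed in how much they varied between piglets of 1 group. With group and sex taken out, the SD of log2 CPM was lowest for GAD2, at 0.12, and 11.4% of the genes tested had a smaller one. It was 0.19 for GAD1 and 0.22 for GRM2, around the median of 0.21 over all genes tested. KIT (0.37), PAX2 (0.36) and EOMES (0.34) were the most variable of the 10, and 74.4 to 77.0% of the genes tested varied less. For KIT and EOMES the SD that counting alone would give at their depth was 0.02 and 0.04. For SLC6A5, with an SD of 0.27, it was 0.14, so that counting error made up more of the spread of this low gene.

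For diet, none of the 10 genes differed beyond the spread between piglets. The log2 difference MILK minus VEG was −0.03 to 0.16, with standard errors of 0.04 to 0.12. By edgeR's quasi-likelihood test with sex as a covariate, 0 of 10 genes passed a Benjamini-Hochberg adjusted p of 0.05 and 0 an unadjusted p of 0.05, against 0% and 4.26% of all genes tested. DESeq2 also gave 0 and 0, and limma voom with library weights 0 and 0. KIT had the largest difference, 0.16 (standard error 0.12, p = 0.178, n = 16 VEG and n = 17 MILK piglets). It was 0.13 to 0.17 in 9 alternative fits. These used the same or nearly the same libraries, so the shared sign is no independent support. PAX2 was at 0.11 (standard error 0.11, adjusted p = 0.985). Without piglet 207 it was at 0.17, with an unadjusted p = 0.0352 and an adjusted p = 0.905. The range of the adjusted p over 9 alternatives was 0.672 to 1. Piglet 207 had the lowest PAX2 of the 33 libraries kept, so leaving it out removes an extreme value of the tested gene. The lower p of that fit is no independent support.

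For birth weight, the estimates of EOMES and SLC6A5 were the largest and no gene passed the threshold. The log2 difference IUGR minus NBW was −0.09 to 0.19, with 0 of 10 genes past the adjusted and 0 past the unadjusted p in edgeR, against 0% and 2.19% of all genes. DESeq2 gave 0 and 0, and limma voom gave 0 past the adjusted and 2 past the unadjusted p, SLC6A5 and EOMES. The share of all genes past the unadjusted p in limma voom is not given for this comparison. In at least 1 of the 8 comparisons 28% of all genes passed it in limma voom and 20.3% in edgeR. In edgeR, EOMES was higher in IUGR by 0.19 (standard error 0.11, p = 0.102) and SLC6A5 by 0.17 (standard error 0.10, p = 0.0907, n = 16 NBW and n = 17 IUGR piglets). Without piglet 207, SLC6A5 was at 0.20 with an unadjusted p = 0.0337 and an adjusted p = 1. This piglet had the lowest SLC6A5 of MILK-IUGR, so that fit leaves out a low value of the tested gene. The other 8 genes lay between −0.09 and 0.06.

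The interaction of diet with birth weight, which compares the effect of milk fat in IUGR with that in NBW piglets, was −0.33 to 0.30 on the log2 scale. In edgeR 0 of 10 genes passed the adjusted and 0 the unadjusted p, against 0% and 6.09% of all genes, and DESeq2 and limma voom also gave 0 and 0. PAX2 was at −0.33 (standard error 0.22, adjusted p = 0.803) and EOMES at 0.30 (standard error 0.22, adjusted p = 0.809). The median absolute interaction of the 10 genes was 0.16, and that of all genes tested was 0.12.

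**Figure D2:**
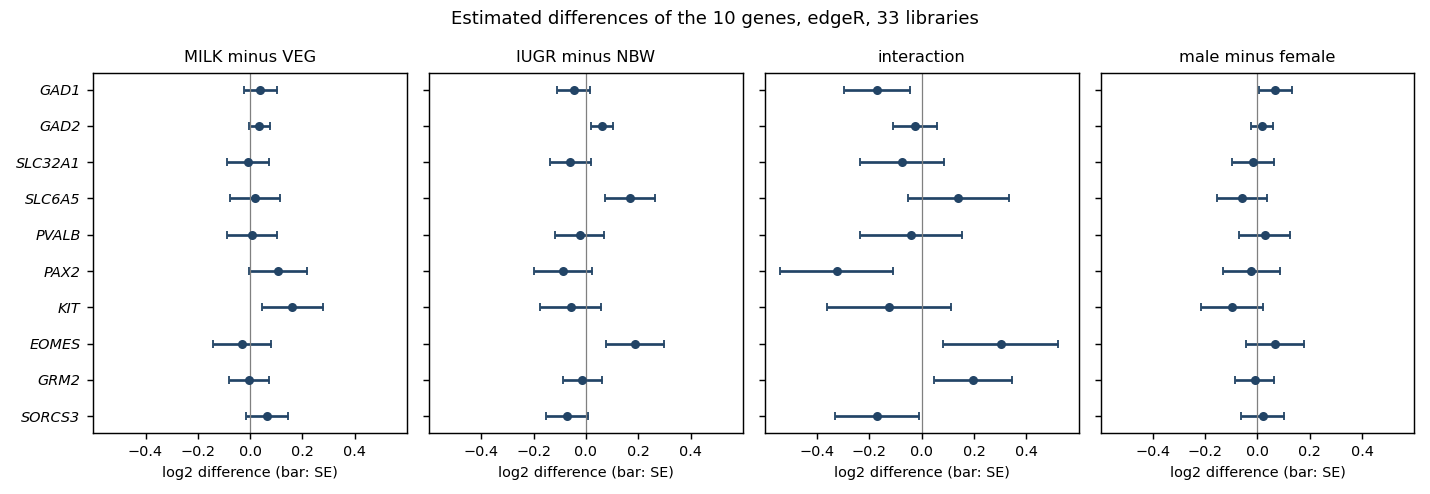
Log2 differences (horizontal axis) of the 10 genes (vertical axis) for MILK minus VEG, IUGR minus NBW, the interaction and male minus female, with bars of 1 standard error, from edgeR on 33 libraries. The largest estimates are those of EOMES and PAX2 for the interaction, 0.30 and −0.33, and each has a standard error of 0.22.

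In the comparisons of 2 groups EOMES was the only one of the 10 genes past an unadjusted p of 0.05 in the edgeR fit of 33 libraries. Between MILK-IUGR and MILK-NBW, 0 of 10 genes passed the adjusted p, against 0% of all genes, and 1 passed the unadjusted p, against 6.24%. DESeq2 gave the same counts, and its share of all genes is not given for this comparison. The log2 difference of EOMES, MILK-IUGR minus MILK-NBW, was 0.34 with a standard error of 0.15 (adjusted p = 0.771). Of the pairs of 1 MILK-IUGR and 1 MILK-NBW piglet, 79.2% had the higher EOMES in MILK-IUGR, and 4 of the 9 MILK-IUGR piglets exceeded every MILK-NBW piglet. The unadjusted p of edgeR was 0.0366. An exact two-sided permutation test of the log2 CPM of the same 9 and 8 piglets gave p = 0.0341, which is not adjusted and is no independent support, since it was run only for a gene already past the unadjusted p. In 10 alternative fits the difference was 0.32 to 0.38, the unadjusted p was 0.00384 to 0.0424, and the adjusted p 0.565 to 1. On the vegetable diet the same difference of IUGR and NBW was 0.03 (standard error 0.16, adjusted p = 1), and the test of the difference between the diets is the interaction given above. Of 3 choroid plexus markers listed, 2 were measured (TTR and KCNJ13), and both passed the unadjusted and neither the adjusted p. Their summed level was 4.13 to 38.8 CPM in MILK-NBW (median 23.9) and 6.27 to 1566 CPM in MILK-IUGR (median 23.5), so that the medians were close and piglet 231 was far above the other piglets of MILK-IUGR. EOMES in piglet 231 was 71.6 CPM, among the lower values of its group. With group and sex taken out, Pearson's r of EOMES over 33 piglets was −0.15 with TTR and −0.16 with KCNJ13. Both had an adjusted permutation p of 0.894, over 14 relations chosen after the values were seen. The part of the choroid plexus in the result was not tested.

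In the same comparison SLC6A5 was at 0.24 (standard error 0.14, adjusted p = 0.771) and PAX2 at −0.25 (standard error 0.15, adjusted p = 0.784). SLC6A5 joined EOMES in limma voom (adjusted p = 0.720) and without piglet 207 (difference 0.30, adjusted p = 0.973). There 2 genes rather than 1 passed the unadjusted threshold. Piglet 207 had the lowest SLC6A5 of MILK-IUGR, and the share of all genes in these fits is not given. Between MILK-NBW and VEG-NBW, 0 of 10 genes passed the adjusted and 0 the unadjusted p, against 0% and 6.67% of all genes. DESeq2 gave 0 and 0 there, and limma voom 0 and 1, for which the share of all genes is not given. PAX2 was nearest, higher in MILK-NBW by 0.27 (standard error 0.16, adjusted p = 0.749). Its unadjusted p over 10 alternatives was 0.00825 to 0.575 and its adjusted p 0.372 to 1. Without piglet 207 the difference was 0.28 (adjusted p = 0.584) and passed the unadjusted threshold. This piglet is in neither group but enters the shared estimate of the spread. It had the lowest PAX2 of the libraries kept, so the fit without it is no independent support.

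The 2 remaining comparisons of groups gave smaller differences. Between MILK-IUGR and VEG-IUGR, 0 of 10 genes passed the adjusted and 0 the unadjusted p, against 0% and 3.9% of all genes, with differences of −0.05 to 0.11. Between VEG-IUGR and VEG-NBW it was 0 and 0, against 0% and 2.29%, with differences of −0.11 to 0.10. DESeq2 and limma voom gave 0 and 0 in both. These comparisons share groups with the ones above and are not independent of them. Between males and females 0 of 10 genes passed the adjusted and 0 the unadjusted p, against 0.163% and 2.94% of all genes, and DESeq2 and limma voom gave 0 and 0. GAD1 was at 0.07 (standard error 0.06) and KIT at −0.10 (standard error 0.12) for male minus female.

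The genes were next compared with each other between the piglets of a group. Group and sex were taken out of log2 CPM, and Pearson's r was computed for the 45 pairs over 33 piglets. The median r was 0.27, against −0.002 over all pairs of the genes tested, and 32 of the 45 were positive. Of the 45 pairs, 9 (20.0%) had an r over 0.5, against 3.46% of all 117895690 gene pairs. After adjustment over the 45 pairs, 13 had a permutation p under 0.05, a criterion at which the share of all gene pairs was not computed.

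The core of this pattern was formed by GAD1, SLC32A1, PVALB and SORCS3, all 6 pairs of which passed. SLC32A1 and PVALB had r = 0.76 (permutation p = 1e-05, the smallest that 100000 permutations can give, adjusted p = 0.000225; Spearman's rho 0.66, permutation p = 0.00015), and r was 0.69 without the 2 piglets farthest from the median. GAD1 and SORCS3 had r = 0.76 (rho 0.74, both with permutation p = 1e-05, adjusted p = 0.000225 for r), and 0.73 without the 2 farthest piglets. GAD1 rose with SLC32A1 at r = 0.70 and with PVALB at r = 0.65, and SORCS3 with SLC32A1 at r = 0.68 and with PVALB at r = 0.66 (rho 0.64 to 0.72, permutation p = 3e-05 to 0.00014 for rho and 4e-05 to 0.00013 for r). Piglets high in 1 of these genes thus tended to be high in the others within their group. The 6 pairs were positive in the 16 females (r = 0.51 to 0.72) and in the 17 males (r = 0.62 to 0.83).

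KIT and GAD2 were tied to this core more loosely. KIT correlated with SORCS3 (r = 0.54, rho 0.51, adjusted permutation p = 0.0145) and GAD1 (r = 0.52, rho 0.56, adjusted permutation p = 0.0208), and its r with PVALB was 0.34 and with SLC32A1 0.28. GAD2 correlated with SORCS3 (r = 0.52, rho 0.49, adjusted permutation p = 0.0208), KIT (r = 0.47, rho 0.49, adjusted permutation p = 0.0413) and GRM2 (r = 0.47, rho 0.39, adjusted permutation p = 0.0413). The adjusted permutation p of rho was 0.0115 to 0.0294 in the first 4 of these 5 pairs and 0.111 for GAD2 and GRM2, and r without the 2 farthest piglets was 0.38 to 0.52. Without piglet 207 the adjusted permutation p of GAD2 with KIT was 0.0502 and with GRM2 0.0642. The 2 decarboxylases, GAD1 and GAD2, had r = 0.42, which missed the threshold (rho 0.38, adjusted permutation p = 0.0806).

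SLC6A5 had 1 negative pair past the threshold. It was negatively correlated with PVALB (r = −0.46, rho −0.49, adjusted permutation p = 0.0428 for r and 0.0294 for rho), and r was −0.41 without the 2 farthest piglets, −0.39 in females and −0.55 in males. Its r with GAD1, SLC32A1 and SORCS3 was −0.19, −0.09 and −0.07, and did not pass. For these 3 the sign differed by sex, with r of 0.07, 0.17 and 0.14 in females and −0.40, −0.39 and −0.25 in males. With GAD2 r was 0.17. With PAX2 it had r = 0.50 (rho 0.31, adjusted permutation p = 0.0387 for r and 0.198 for rho), but this rests on piglet 207, which was low in both genes. Without this piglet r was 0.15 (adjusted permutation p = 0.573), and r was 0.74 in the females, of which it is one, and −0.03 in the males. EOMES had no pair past the threshold, with r from −0.31 (GAD1) to 0.29 (SLC6A5). Its r with GRM2, the other unipolar brush gene, was 0.27.

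**Figure D3:**
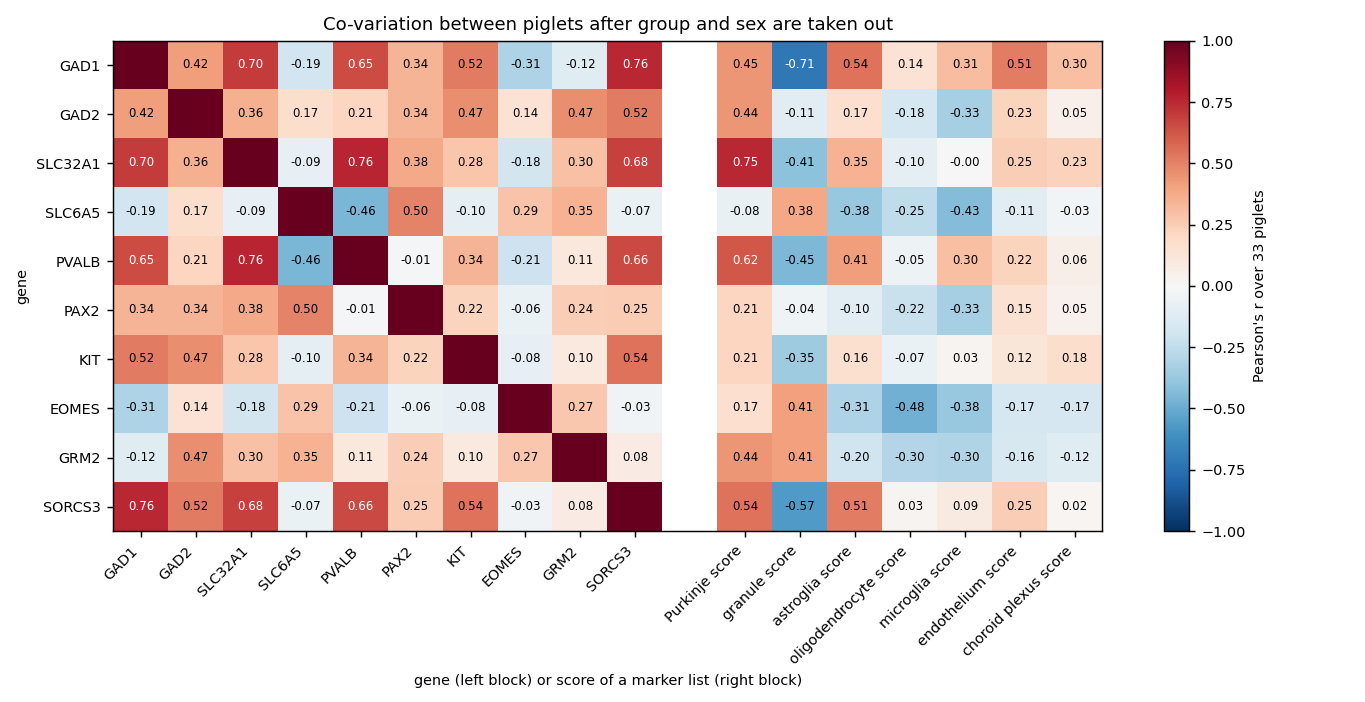
Pearson's r over 33 piglets, after group and sex are taken out, between the 10 genes (left block) and between each gene and the score of 7 marker lists (right block), printed in each cell and coloured from −1 to 1. GAD1, SLC32A1, PVALB and SORCS3 form a block of r from 0.65 to 0.76. EOMES, SLC6A5, PAX2 and GRM2 have no positive pair with these genes past the adjusted threshold.

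**Figure D4:**
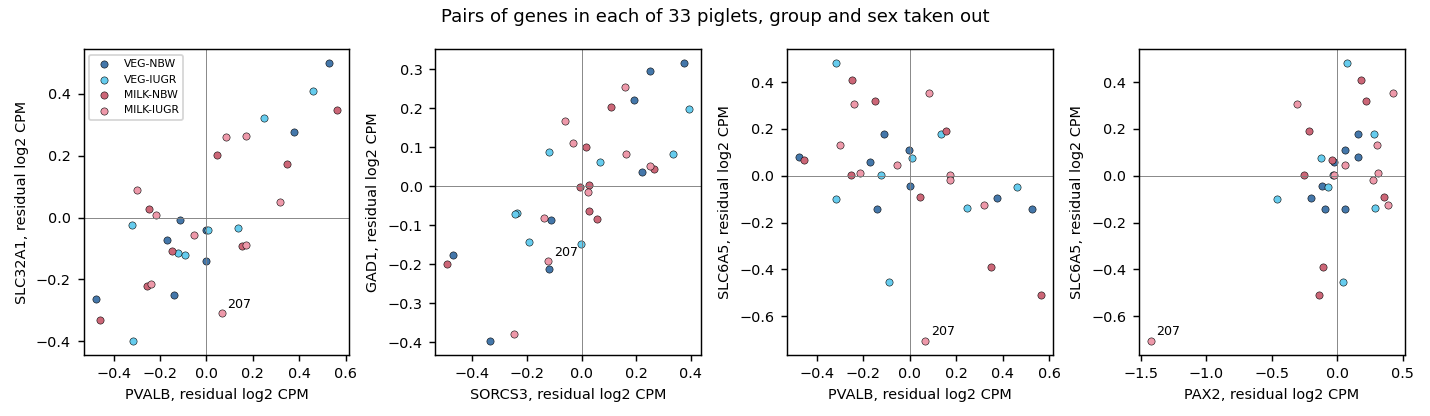
Residual log2 CPM of a gene (vertical axis) against that of another (horizontal axis) in 33 piglets, coloured by group. SLC32A1 rises with PVALB and GAD1 with SORCS3, SLC6A5 falls with PVALB, and piglet 207 lies alone in the panel of SLC6A5 and PAX2.

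The members were also set against markers of other cell types, each list scored as the mean of its standardised residuals. Of 70 relations, 8 had a permutation p under 0.05 after adjustment over the 70. The share of all genes tested with such a relation was not computed, so this count has no background. The Purkinje score (8 genes) correlated with SLC32A1 (r = 0.75, rho 0.70, adjusted permutation p = 0.00035), PVALB (r = 0.62, rho 0.49, adjusted permutation p = 0.00677) and SORCS3 (r = 0.54, rho 0.57, adjusted permutation p = 0.0304). The granule cell score (8 genes) was negatively correlated with GAD1 (r = −0.71, rho −0.64, adjusted permutation p = 0.00035) and SORCS3 (r = −0.57, rho −0.50, adjusted permutation p = 0.0252). Piglets with more RNA of GAD1 and SORCS3 thus had less of the granule cell markers within their group. The astroglia score (6 genes) correlated with GAD1 (r = 0.54, rho 0.41, adjusted permutation p = 0.0304) and SORCS3 (r = 0.51, rho 0.37, adjusted permutation p = 0.0442), and the endothelium score (4 genes) with GAD1 (r = 0.51, rho 0.41, adjusted permutation p = 0.0442). By rho, 3 of the 8 relations passed, SLC32A1 and SORCS3 with the Purkinje score and GAD1 with the granule cell score (adjusted permutation p = 0.0021 to 0.0352), and the other 5 did not (0.0667 to 0.197). Without the 2 piglets farthest from the median of the score, r was 0.38 to 0.66 in size in all 8. EOMES and the oligodendrocyte score (5 genes) had r = −0.48, which did not pass. Levels in CPM share 1 total per library, so that a high share of 1 cell type lowers the CPM of the others, and the part of cell composition or dissection in these relations was not tested. The share of read pairs without a gene and the total count had no relation with a member past an adjusted permutation p of 0.05 (20 relations, the smallest adjusted p = 0.279). With the share, r ran from −0.35 (GAD1) to 0.39 (SLC6A5). SLC6A5, GRM2 and EOMES had positive r with an unadjusted permutation p of 0.0373 to 0.0418. The part of library quality in the levels of these genes was not tested.

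The genes most like each member were taken as the 3 with a symbol and the highest r over the 33 piglets, as a description. For GAD1 these included ABAT, which breaks GABA down (r = 0.81), and LHX5, a transcription factor (r = 0.80). ABAT and GAD1 were also among the 3 of SORCS3 (r = 0.73 and 0.76), led by GRIP1, a synaptic scaffold (r = 0.76). For SLC32A1 they were SNCB (r = 0.90), ASIC2 (r = 0.88) and GRIK4 (r = 0.84), and for PVALB PCP2, a Purkinje cell gene (r = 0.84), AP2S1 (r = 0.82) and MGST3 (r = 0.80). PVALB thus had a Purkinje marker as its nearest gene. For EOMES they were YPEL4 (r = 0.79), PTCHD1 (r = 0.78) and NDEL1 (r = 0.75), and for GRM2 APLP2 (r = 0.82), SLC2A8 (r = 0.79) and SPTAN1 (r = 0.78). SLC6A5 was nearest to CNNM2 (r = 0.78), GABBR2, a subunit of the GABA-B receptor (r = 0.77), and CUX2 (r = 0.76). PAX2 was nearest to SIPA1L3 (r = 0.87), KIF1A (r = 0.85) and PLXNB2 (r = 0.85), which fell to 0.66, 0.60 and 0.55 without the 2 piglets farthest from the median of PAX2. GAD2 and KIT had lower values: the 3 genes of GAD2 (FHIP1A, MEIOB and FAM234A) reached r = 0.59 to 0.66 and those of KIT (FREM1, GRIP1 and F10) r = 0.61 to 0.62.

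The 3 libraries left out gave other values for these genes. In piglet 210 GAD1, GAD2, SLC6A5, PAX2, GRM2 and SORCS3 had 0 counts, SLC32A1 was at 54.0 CPM, and PVALB was at 2476 CPM from 19846 read pairs. No library kept exceeded 494 CPM of PVALB. In piglet 202 GAD1 was at 116 CPM and SLC6A5 at 0.844 CPM, and in piglet 213 SLC6A5 had 8 read pairs, while their PVALB was at 317 and 498 CPM. With all 36 libraries 0 of 10 genes passed the adjusted p in any of the 8 comparisons. PVALB then passed the unadjusted p for the interaction (−0.92 on the log2 scale, adjusted p = 0.843). The correlation of SLC32A1 and PVALB turned to −0.28 and that of GAD1 with the granule cell score to 0.90.

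Other genes of the same pathways were taken from 4 lists of 35 genes, of which 33 were in the tables and 32 passed the filter. In edgeR 0 of the 32 passed the adjusted p in any of the 8 comparisons, and DESeq2 and limma voom also gave 0. At an unadjusted p of 0.05 it was 8 of the 32 in edgeR, 7 in DESeq2 and 10 in limma voom in at least 1 comparison, against 20.3%, 21.5% and 28% of all genes tested. In edgeR these were 14 of 256 values, where 2.19 to 6.67% of all genes passed, depending on the comparison. The median interaction was −0.03 for inhibitory transmission, −0.28 for the interneuron lineage, −0.03 for interneuron types and 0.19 for the unipolar brush list, against −0.002 over all genes tested. Among 9 genes of inhibitory transmission, GLRB, a subunit of the glycine receptor, passed the unadjusted p for the interaction (0.27, standard error 0.10), which 6.09% of all genes passed. Among 7 genes of the interneuron lineage, the transcription factors TFAP2A (−0.40, standard error 0.16) and TFAP2B (−0.33, standard error 0.14) passed it. PAX2 had the same sign and did not pass. TFAP2A was at 12 ± 1.46, 13.1 ± 2.27, 14.6 ± 1.2 and 11.9 ± 2.38 CPM in the 4 groups, and like PAX2 it had its highest mean in MILK-NBW. On the list named interneuron types (8 genes), KITLG, the ligand of KIT, passed for the interaction (0.33, standard error 0.14). Which cells made this RNA cannot be told from bulk tissue. The mean of KITLG was lowest in MILK-NBW, at 47.9 ± 7.82 CPM, where the mean of KIT was highest. The interaction of KIT was −0.13 (standard error 0.24, adjusted p = 0.931), and the relation of KIT and KITLG was not tested. GLRB, TFAP2A, TFAP2B and KITLG had an unadjusted p of 0.0159 to 0.0259 for the interaction and an adjusted p of 0.784.

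Of the 8 other unipolar brush genes, LMX1A, a transcription factor of the rhombic lip, passed the unadjusted p for birth weight (0.64, standard error 0.22, adjusted p = 1) and PLCB4, a phospholipase C, for the interaction (0.30, standard error 0.14, adjusted p = 0.784). LMX1A was counted by 2 to 52 read pairs per library and had 1.02 ± 0.36 CPM in VEG-NBW, 1.37 ± 0.23 in VEG-IUGR, 1.01 ± 0.47 in MILK-NBW and 1.81 ± 0.93 in MILK-IUGR. Both IUGR groups had the higher mean, with overlapping ranges. SLC17A6, the vesicular glutamate transporter 2, was named after its values were seen. It had 11.07 ± 5.25 CPM in MILK-NBW and 18.8 ± 7.50 in MILK-IUGR, a log2 difference of 0.81 (standard error 0.34, adjusted p = 0.771). In MILK-NBW piglet 234 had 1.22 CPM of SLC17A6, and the next lowest, piglet 212, had 8.83. Piglet 234 was also lowest of its group in LMX1A (0.12 CPM) and OTX2 (6.92 CPM). In MILK-IUGR piglet 233 was lowest in SLC17A6, LMX1A and OTX2 (3.53, 0.39 and 17.8 CPM). Fits without these piglets were not made. For MILK-IUGR minus MILK-NBW 7 of the 8 listed genes had an estimate above 0, with a median of 0.11 against −0.005 over all genes tested, and 2 passed the unadjusted p, against 6.24%. The exception was CALB2, the calcium buffer calretinin, with 36.3 ± 6.67 CPM in MILK-NBW and 34.8 ± 11.8 in MILK-IUGR. EOMES was not correlated with LMX1A or SLC17A6 past the threshold within groups: r of EOMES was 0.05 with LMX1A and 0.04 with SLC17A6. The highest r of EOMES on this list was with PLCB4 (0.48, rho 0.51, adjusted permutation p = 0.110 over 14 relations chosen after the values were seen). The choroid plexus gene TTR, a marker of an epithelium that borders the rhombic lip, had r = 0.41 with LMX1A (rho 0.38, adjusted permutation p = 0.128). KCNJ13, the other choroid plexus marker measured, had r = 0.08 with LMX1A (rho −0.006, adjusted permutation p = 0.899). SLC17A6 had r = 0.009 with TTR and −0.33 with KCNJ13 (adjusted permutation p = 0.965 and 0.239). The part of the choroid plexus in the LMX1A and SLC17A6 differences was not tested.

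**Figure D5:**
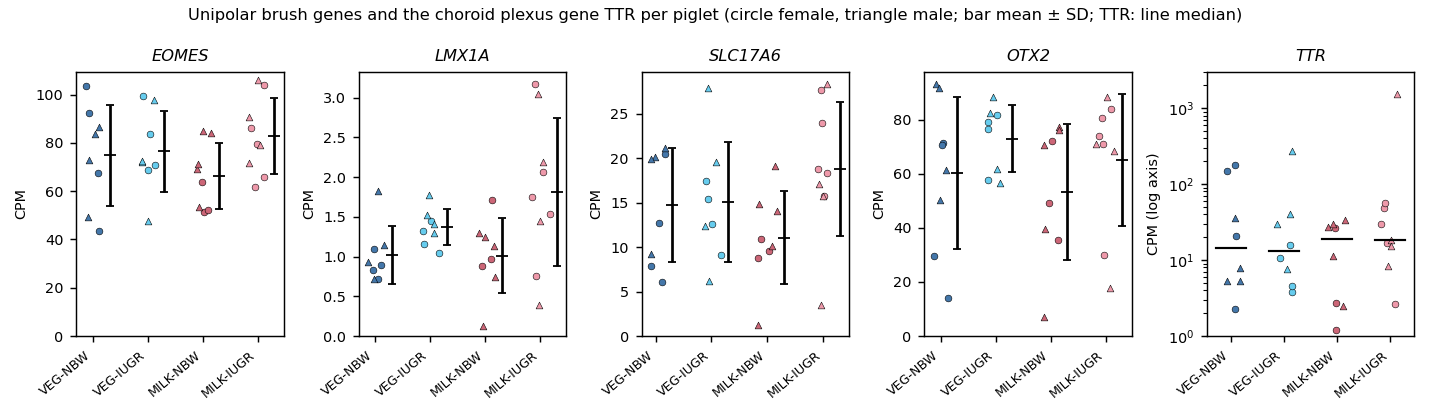
CPM (vertical axis, logarithmic for TTR) of EOMES, 3 other unipolar brush genes and the choroid plexus gene TTR in 33 piglets by group (horizontal axis), with bars of mean ± SD and, for TTR, a line at the median. EOMES, LMX1A and SLC17A6 have their highest mean in MILK-IUGR with ranges that overlap the other groups. OTX2, the other unipolar brush gene shown, has its highest mean in VEG-IUGR. TTR reaches 1522 CPM in 1 MILK-IUGR piglet.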

How the data were processed

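Total RNA of the cerebellum was sequenced as paired-end reads of 150 bases. The authors deposited raw counts of read pairs per Ensembl gene for each piglet, without normalization. The submitters' notes name Trim Galore, HISAT2, HTSeq, DESeq2 and the build Sscrofa11.1, and no versions. Which annotation release and which strand setting the counting had is not given in the sources used here. The 5 closing rows of each table, which name no gene, held 26.7 to 30.5% of the read pairs in the libraries kept and stayed out of library sizes.

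The study dropped 3 libraries for low RNA integrity, 1 in every group but MILK-IUGR, and did not name the piglets. The 3 dropped here were chosen by Dixon's rule on the share of read pairs without a gene and fall in the same 3 groups, and all 36 are an alternative throughout. No 2 libraries held identical values, and piglets are not paired across groups. Littermates shared groups, the study's models held litter as a random effect, and litter is not in the labels, so p-values here treat piglets as independent.

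The fits were made with edgeR 4.0.16 under R 4.3.3 (TMM, filterByExpr with a minimum count of 10, quasi-likelihood F test, sex as a covariate, Benjamini-Hochberg adjustment over 15356 genes). Diet and birth weight were tested without their interaction, the rest on the 4 group means. Log2 CPM had a prior count of 2. Correlation p-values are two-sided, from 100000 permutations of residuals with group and sex taken out again each time (numpy 2.4.6). Alternatives were DESeq2 1.42.0, its size factors in edgeR, limma 3.58.1 voom, other filters, other covariates, fits of 2 groups and leaving out piglet 207. The fits and correlations were tested on simulated data. Coordinates are gene spans of the RefSeq table for Sscrofa11.1. Transcript lengths were not used here, so levels are not compared between genes.

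The 10 genes and all lists were chosen with earlier results of these data known. Named from the pathway lists were genes past the adjusted p and, for diet, birth weight, the interaction and sex, at most 3 a list with the smallest unadjusted p under 0.05. Genes named otherwise were chosen after their values were seen.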

Additional observations from a re-analysis of the deposited data

Results flagged for a closer look

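In 1 of 40 combinations of a gene and a group, 1 piglet stood apart from the rest of its group by Dixon's criterion, which chance meets in about 1 of 20 groups. This was SORCS3 in MILK-NBW, where piglet 230 was at 14.9 CPM and the other 7 piglets were between 20.9 and 25.0 CPM. The same piglet had the lowest GAD1, SLC32A1, PVALB and KIT of MILK-NBW (317, 113, 243 and 174 CPM) and the highest EOMES (85.0 CPM).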

How the results depend on the processing

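For the 10 genes, 0 passed the adjusted p in any comparison or alternative. Of 320 alternative estimates over 35 results, 298 kept their direction and 22 turned, each 0.30 or less in size and none called. For diet, SLC32A1 turned to 0.0747 with all 36 libraries, 0.0431 in limma voom and 0.0102 without piglet 207, PVALB to −0.30 with all 36, −0.00852 in voom and −0.000874 with the share of read pairs without a gene as covariate, EOMES to 0.0151 in voom and 0.0058 with that covariate, and GRM2 to 0.0992 with all 36, 0.0601 in voom, 0.00192 without piglet 207 and 0.0157 with that covariate. For birth weight, PVALB turned to 0.28 with all 36 and 0.00526 in voom, KIT to 0.0536 with all 36, and GRM2 to 0.0469 in voom and 0.0107 with that covariate. For the interaction, GAD2 turned to 0.12 and SORCS3 to 0.0172 with all 36, SLC32A1 to 0.00303 and PVALB to 0.0136 in voom, and PVALB to 0.0176 with that covariate. The cause was not tested.

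The number of genes past an unadjusted p of 0.05 was 1 in place of 0 without piglet 207 for diet and birth weight, 2 for birth weight in voom and with that covariate, and 1 with all 36 libraries for the interaction, for MILK-IUGR against VEG-IUGR and for VEG-IUGR against VEG-NBW. For MILK-NBW against VEG-NBW it was 1 in voom, without piglet 207, with that covariate and in a fit of the 2 groups. For MILK-IUGR against MILK-NBW it was 2 in voom and without piglet 207. The share of all genes past the unadjusted p is not given for these fits, so these counts have no background.

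Pairs of genes past the adjusted p numbered 10 to 13 in 5 alternatives and 27 with all 36 libraries, and relations with marker lists 6 to 8 in 4 alternatives, 3 by Spearman's rho and 51 with all 36. Leaving out piglet 207 was added for the correlations after their values were seen. With all 36 libraries r turned to −0.83 for GAD1 and PVALB, −0.0883 for GAD1 and KIT, −0.0932 for GAD2 and KIT, −0.28 for SLC32A1 and PVALB, −0.79 for PVALB and SORCS3 and −0.00632 for KIT and SORCS3. With the granule cell score it turned to 0.90 for GAD1 and 0.87 for SORCS3, and with the Purkinje score to −0.26 for PVALB. In these 36, piglet 210 had 0 counts of 6 genes. No paired analysis was possible because the piglet numbers do not pair groups. Depth limits low genes such as SLC6A5 (56 to 150 read pairs per library kept) and LMX1A (2 to 52).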
